A study of Mus musculus with 137 samples.

Results

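The villus of the duodenum was compared between mice that drank water with 5 ppm Cr(VI) for 7 days and mice that drank water without Cr(VI) for the same time. This comparison used 9 of the 66 villus libraries of the study, 4 from exposed mice (286, 288, 289, and 290) and 5 from untreated mice (46 to 50), and was chosen by the concentration, compartment, and day in the sample labels. All animals were female wildtype B6C3F1 mice, a hybrid of the C57BL/6 and C3H strains. Cr(VI) was supplied as sodium dichromate dihydrate, a soluble salt of hexavalent chromium, and the tissue was collected on day 8. The study covered 28 groups of crypt or villus at 7 concentrations on day 8 or 91, from 71 mice. Villi were scraped from sections of fixed, paraffin-embedded duodenum, so each library held every cell type of the scraped area, and a lower share of cells of a type cannot be told apart from less RNA per cell. Mouse 287, also at 5 ppm, had a crypt library only.

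The villus is the absorptive projection of the small intestine, and is covered mainly by enterocytes that no longer divide. These cells are renewed from stem cells in the crypts at its base, where Paneth cells secrete antimicrobial peptides. Cr(VI) is an oxidant that is reduced in the gut lumen and inside cells, and high concentrations in drinking water are known to damage the duodenal villus of mice and to be followed by crypt hyperplasia and tumors. Tsc22d3 and heat shock genes recur below: Tsc22d3 is a classical target of the glucocorticoid receptor, and heat shock proteins are chaperones that help other proteins fold and are induced through the factor HSF1 when proteins are damaged.

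RNA was measured by TempO-Seq, in which pairs of detector oligonucleotides that lie side by side on a transcript are ligated, amplified, and sequenced, and each probe (1 such pair) yields a read count. Libraries held 1893855 to 3049502 counts at 5 ppm and 2405384 to 4054136 at 0 ppm, within a range of 1463938 to 7199801 in the study. The mean total differed by −694790 counts between exposed and untreated libraries (two-sided exact permutation test over all 126 arrangements, p = 0.159, adjusted p = 0.302) and the mean number of probes with at least 1 count by −1618 (p = 0.302 in the exact test, adjusted p = 0.302). Expression is given below as CPM, the count relative to the library size (cpm of edgeR) after scaling by the trimmed mean of M-values (TMM). CPM of different probes are not comparable, because the efficiency of a probe is unknown.

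The libraries carried the markers of villus enterocytes, with 64861 to 73239 summed CPM over 14 markers at 5 ppm and 46474 to 91033 at 0 ppm. Markers of other cells were present and varied between mice. Summed CPM of 10 Paneth markers were 3771, 5693, 2705, and 1923 in mice 286, 288, 289, and 290, and 6627, 10627, 24201, 2888, and 5404 in untreated mice 46 to 50. The 11 markers of crypt stem and progenitor cells summed to 158 to 326 CPM at 5 ppm and to 269 to 420 CPM in 4 untreated libraries, but to 966 CPM in mouse 48. That library also had the highest sum of stroma and smooth muscle markers (2067 CPM, against 489 to 1076 in the other 8) and the lowest sum of enterocyte markers. Pancreatic acinar markers ranged from 34.8 CPM in mouse 50 to 43417 CPM in mouse 49, with 178 to 13556 CPM at 5 ppm. Some results that moved with mouse 48 are given with and without it, and others with all libraries only.

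**Figure D1:**
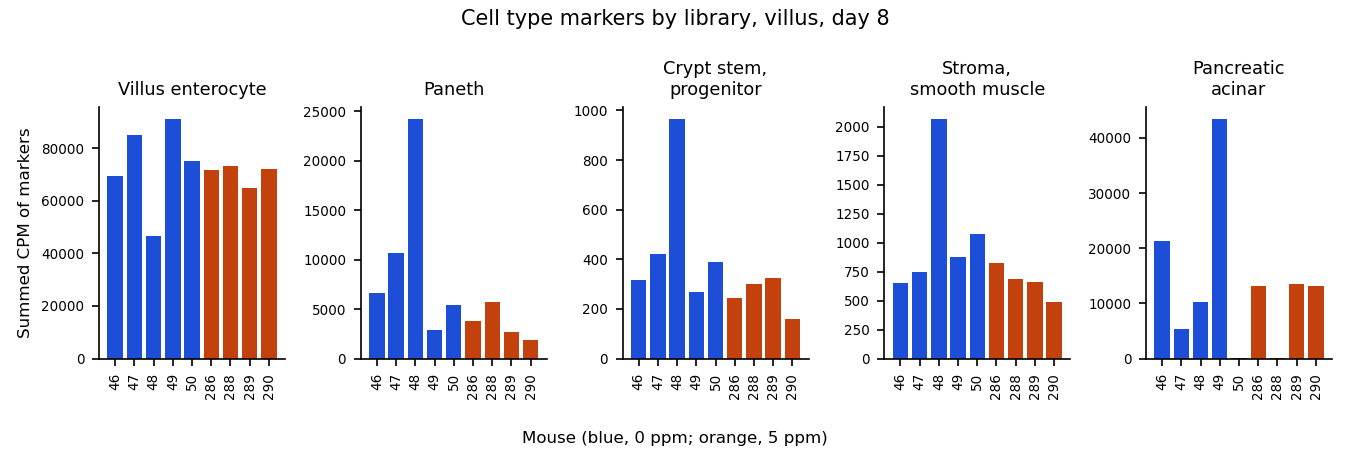
Summed CPM of cell type markers (y axis, separate linear scales from 0) in each villus library of day 8, with untreated mice in blue and mice at 5 ppm in orange. Paneth, crypt, and stroma markers are highest in untreated mouse 48 and enterocyte markers are lowest there, while acinar markers are near 0 in mice 50 and 288.

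Of 26365 probes tested, 94 passed at an adjusted p under 0.1 (edgeR quasi-likelihood test), which is 0.357% of the probes. These were probes of 94 different genes, which are the DEGs of this comparison. Expression rose for 28 (0.106% of the probes) and fell for 66 (0.25%). The DEGs that rose were mostly at low levels in untreated villi: their median mean level was 5.61 CPM at 0 ppm and 27.4 CPM at 5 ppm, with a median log2 fold change of 2.41. Those that fell had median mean levels of 65.1 and 21.0 CPM and a median log2 fold change of −1.49. For 46 of the 94, the mean stayed under 50 CPM in both groups. The groups did not overlap in CPM for 13 DEGs that rose (0.577% of all probes tested did not overlap with 5 ppm higher) and 32 that fell (0.941% with 5 ppm lower).

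The number of DEGs rested on single mice. It was 0 without mouse 288 (edgeR, 2484 probes at an unadjusted p under 0.05, against 3114 with all libraries), 6 without mouse 286, 399 without mouse 289, and 450 without untreated mouse 50. Without untreated mouse 48 it was 14, without mouse 46 it was 46, and without mouse 47 it was 45. Of the 94, 80 did not pass without mouse 48. Among them were Ccng1, Tle1, Sbf2, Tbcb, Sort1, Stmn2, Ssh2, Map2k1, Mrpl47, Nup50, Rfc4, and Ccl20 (edgeR adjusted p from 0.1075 to 0.16 for these). Mouse 48 was the highest untreated library for 28 of the 66 DEGs that fell and the lowest for 3 of the 28 that rose. With the level of the crypt markers as a covariate, 22 genes passed, all of them among the 94, and 11 of those rose. The split between directions also moved with the scaling, since 51 genes rose and 57 fell with DESeq2 size factors (47.2% higher, against 29.8% with TMM). In a model of the 2 groups alone, and in a model of the villus libraries of day 8 alone, 1 gene passed. In both it was Tsc22d3.

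Tsc22d3, which encodes the glucocorticoid-induced leucine zipper, had the smallest p of all probes (chrX:140539528-140600659, minus strand). Its level was 88.4, 76.5, 144, and 84.2 CPM in mice 286, 288, 289, and 290, and 371, 374, 234, 394, and 263 CPM in untreated mice 46 to 50. Every exposed library lay below every untreated one. The log2 fold change was −1.73 ± 0.33 (SE), with an adjusted p of 0.0142 by edgeR, and it was −1.82 without mouse 48 (edgeR adjusted p = 0.0117). The gene passed in all 10 alternative analyses and when any 1 library other than that of mouse 288 was left out, where its adjusted p was 0.12. A second Tsc22d3 probe, with far fewer reads, had 11.2 CPM at 5 ppm and 8.05 CPM at 0 ppm and a log2 fold change of 0.27 that did not pass.

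The other glucocorticoid response genes were followed as a list of 12, of which Tsc22d3 alone passed. Beside it, 3 more were lower at an unadjusted p under 0.05, and 0 were higher. Of all probes tested, 11.8% had such a p. Sgk1, a kinase that regulates ion transport, averaged 40.5 CPM at 5 ppm and 97.7 CPM at 0 ppm (log2 fold change −1.24 ± 0.46 SE, edgeR adjusted p = 0.263). Errfi1, an inhibitor of the epidermal growth factor receptor, averaged 95.4 and 189 CPM (−0.99 ± 0.43 SE, edgeR adjusted p = 0.355). Fkbp5, a co-chaperone of the glucocorticoid receptor, averaged 81.7 and 89.5 CPM and did not pass. The median log2 fold change of the list was −0.55, against −0.08 over all probes tested, and −0.75 without mouse 48.

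**Figure D2:**
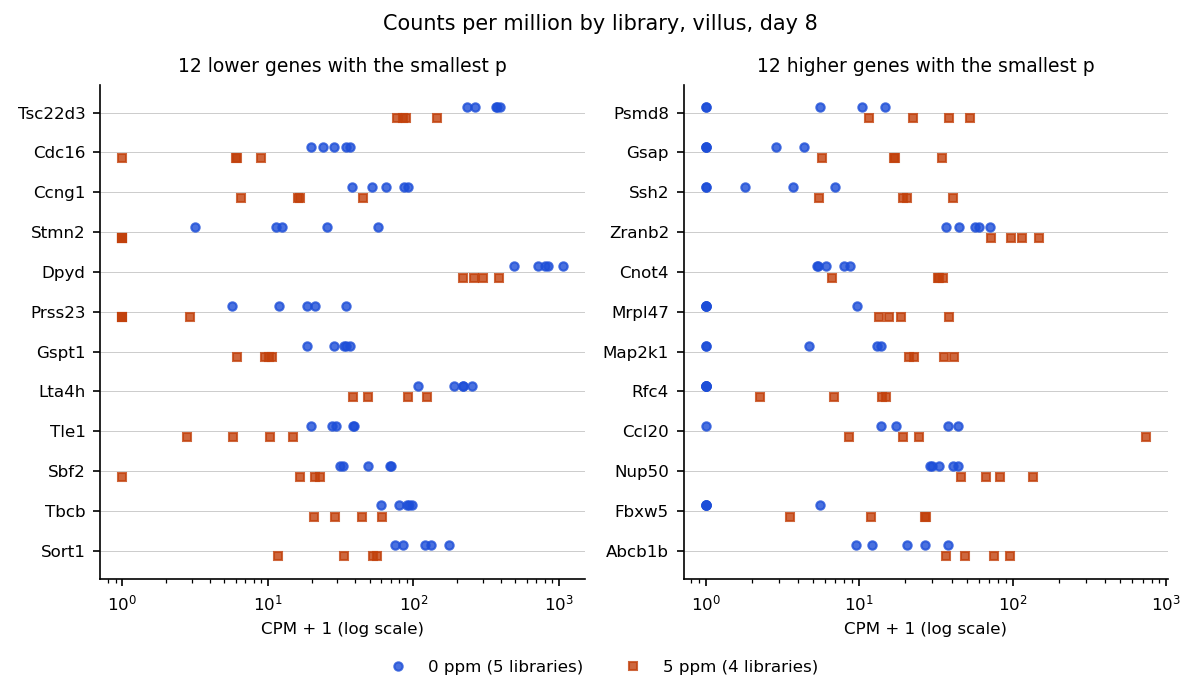
CPM + 1 (x axis, log scale) of the 12 DEGs that fell and the 12 that rose with the smallest p, with a blue circle for each untreated library and an orange square for each library at 5 ppm. Tsc22d3 and Dpyd are separated at levels above 70 CPM, whereas most genes of the right panel are at or near 0 in untreated libraries, and Ccl20 is high in 1 exposed library only.

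Cdc16, a subunit of the anaphase-promoting complex, ranked next (chr8:13757676-13781938, plus strand). Its probe had 5.07, 0, 7.91, and 5.11 CPM at 5 ppm and 35.8, 18.8, 33.2, 27.7, and 23.0 CPM at 0 ppm. The groups did not overlap, and the log2 fold change was −2.52 ± 0.49 (SE; edgeR adjusted p = 0.0142). However, another probe of Cdc16 differed in the other direction, with 17.3 CPM at 5 ppm and 5.20 CPM at 0 ppm (log2 fold change 1.5, not passed).

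Dpyd, the first enzyme of pyrimidine breakdown, had the most reads of the 12 DEGs with the smallest p that fell (chr3:118562129-119432924, plus strand). It had 220, 262, 298, and 386 CPM at 5 ppm and 803, 1063, 835, 714, and 492 CPM in untreated mice. All exposed libraries were below all untreated ones. Its log2 fold change was −1.42 ± 0.30 (SE; edgeR adjusted p = 0.031), and −1.39 without mouse 48 (edgeR adjusted p = 0.095). Its other probe had a log2 fold change of −0.47.

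Ccng1, a cyclin G gene induced by p53, was the one p53 target that passed, and it fell. Its levels were 5.50, 15.2, 44.3, and 15.7 CPM at 5 ppm and 63.6, 36.9, 90.4, 84.7, and 50.6 CPM at 0 ppm, so mouse 289 overlapped with an untreated library. The log2 fold change was −1.63 ± 0.34 (SE; edgeR adjusted p = 0.031). It stood alone among 25 genes in the list of p53 targets and DNA damage. Cdkn1a, the p53-induced inhibitor of cyclin-dependent kinases, averaged 49.5 CPM at 5 ppm and 39.8 CPM at 0 ppm, and Mdm2, the ligase that degrades p53, averaged 18.1 and 27.5 CPM. The list's median log2 fold change was −0.06, and 0 members were higher and 4 lower at an unadjusted p under 0.05, where 11.8% of all probes had such a p.

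Gspt1, the release factor eRF3a that ends translation, had 9.73, 8.5, 9.18, and 5.11 CPM at 5 ppm and 17.7, 35.9, 32.6, 27.7, and 33.4 CPM at 0 ppm. The groups did not overlap, and its log2 fold change was −1.87 ± 0.41 (SE; edgeR adjusted p = 0.031). A second Gspt1 probe, with more reads, had 32.5 ± 26.8 CPM (SD, n = 4) at 5 ppm and 42.2 ± 21.5 CPM (SD, n = 5) at 0 ppm. Its log2 fold change of −0.34 did not pass. Lta4h, which makes leukotriene B4, had a log2 fold change of −1.38 ± 0.31 (SE; edgeR adjusted p = 0.0405), with 74.8 ± 39.6 CPM (SD, n = 4) at 5 ppm and 197 ± 54.8 CPM (SD, n = 5) at 0 ppm. Sort1, a receptor that sorts proteins to lysosomes, fell from 117 ± 40.4 to 37.6 ± 20.5 CPM (log2 fold change −1.61). Tle1, a transcriptional corepressor, fell from 30.0 ± 8.14 to 7.42 ± 5.29 CPM (−1.98), and the groups did not overlap. Both other probes of Tle1 were also lower, by log2 values of −0.65 and −1.05. Sbf2, a regulator of membrane traffic (−1.72), and Tbcb, a tubulin cofactor (−1.12), also fell. Of the other Sbf2 probes, one with few reads had a log2 fold change of −1.40 that did not pass. The other did not differ, with 30.1 CPM at 5 ppm and 29.4 CPM at 0 ppm. The probe of Prss23, a serine protease, that passed was at 0 in 3 exposed libraries and at 1.90 CPM in mouse 289. In untreated mice it had 4.69 to 33.2 CPM. A Prss23 probe with more reads had 42.4 ± 17.7 CPM (SD, n = 4) at 5 ppm and 66.4 ± 21.0 CPM (SD, n = 5) at 0 ppm. Its log2 fold change of −0.65 did not pass, and a further probe with few reads had −0.07.

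Genes of protein folding were among those that fell. Of 13 heat shock genes in the list, 2 passed and both fell, where 0.25% of all probes fell. At an unadjusted p under 0.05, 5 were lower and 0 were higher. Over all probes tested, 6.91% were lower and 4.90% higher at that p, and the counts of the lists below are to be read against these shares. Hspa8, the constitutive cytosolic HSP70, had 120, 228, 257, and 231 CPM at 5 ppm and 328, 394, 613, 296, and 445 CPM at 0 ppm, without overlap. Its log2 fold change was −0.99 ± 0.26 (SE; edgeR adjusted p = 0.0678). Hspa1b, a heat-inducible HSP70, was at 0 in 3 exposed libraries and at 3.80 CPM in mouse 289, and had 0, 4.69, 32.4, 13.2, and 32.9 CPM in untreated mice (−3.94 ± 1.07 SE, edgeR adjusted p = 0.0982). Hspa1b and Hspa1a are nearly identical in sequence, so reads of the probe may come from either.

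Another 2 chaperone genes outside the list fell and were picked after their values had been seen. Chordc1, a co-chaperone of HSP90, had 77.4, 97.9, 155, and 164 CPM at 5 ppm and 253, 290, 311, 166, and 227 CPM at 0 ppm. Mouse 290 came close to the lowest untreated library without overlapping it. The log2 fold change was −1.01 ± 0.26 (SE; edgeR adjusted p = 0.0696), and its other probes had −0.94 and −0.98. Hspa4l, an HSP110 family chaperone, fell from 65.1 ± 26.6 to 21.1 ± 12 CPM (log2 fold change −1.63 ± 0.41 SE, edgeR adjusted p = 0.0601), and its other probes had −1.01 and −1.83.

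None of these chaperone genes passed without mouse 48. The edgeR adjusted p was then 0.265 for Hspa8, 0.263 for Hspa1b, 0.216 for Chordc1, and 0.237 for Hspa4l, and the log2 fold changes were −0.80, −3.57, −0.90, and −1.38. The median of the list was −0.59 with all libraries and −0.25 without mouse 48. With crypt markers as a covariate none of the 4 passed either, with log2 fold changes of −0.71 for Hspa8, −3.81 for Hspa1b, −0.83 for Chordc1, and −1.36 for Hspa4l (edgeR adjusted p from 0.193 to 0.289), and the median of the list was −0.27. Hsph1, another HSP110, averaged 84.0 CPM at 5 ppm and 160 CPM at 0 ppm and did not pass (−0.94 ± 0.37 SE, edgeR adjusted p = 0.293).

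Promoters of the chaperone genes that fell were read because HSF1 binds inverted repeats of the letters GAA. Sequences are RefSeq promoters on GRCm38.p6, from 250 bases before to 50 bases after the gene start, printed 5′ to 3′ on the strand of the gene. Capitals mark each match to GAANNTTC or TTCNNGAA, searched on both strands with overlaps counted. The promoter of Chordc1 (chr9:18292017-18292316, plus strand) held 5 matches, and that of Hspa1b (chr17:34959189-34959488, minus strand) held 1. That of Hspa4l held 0, and the promoter of Hspa8 was not analysed here. Over all 32851 promoters, 15.1% held at least 1 match and 0.256% held at least 3. These matches describe letters only.
Chordc1: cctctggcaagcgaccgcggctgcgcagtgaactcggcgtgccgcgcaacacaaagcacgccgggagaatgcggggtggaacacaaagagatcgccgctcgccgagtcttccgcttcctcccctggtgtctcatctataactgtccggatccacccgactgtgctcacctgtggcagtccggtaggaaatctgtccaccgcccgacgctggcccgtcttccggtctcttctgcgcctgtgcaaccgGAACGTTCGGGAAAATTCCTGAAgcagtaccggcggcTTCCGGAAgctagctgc
Hspa1b: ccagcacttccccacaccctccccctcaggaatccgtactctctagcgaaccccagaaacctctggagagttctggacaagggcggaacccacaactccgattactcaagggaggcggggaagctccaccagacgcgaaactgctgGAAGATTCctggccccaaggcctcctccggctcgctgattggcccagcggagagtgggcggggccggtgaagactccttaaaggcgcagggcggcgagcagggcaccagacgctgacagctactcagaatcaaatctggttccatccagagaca

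The DEGs that rose were led by genes with few reads in untreated villi. Psmd8, a subunit of the proteasome lid, had 52.0, 37.6, 21.5, and 10.6 CPM at 5 ppm and 13.7, 0, 4.59, 0, and 9.36 CPM at 0 ppm (log2 fold change 2.39 ± 0.52 SE, edgeR adjusted p = 0.031). The abundant probe of Psmd8 did not differ in the same way: it had 450 ± 80.1 CPM (SD, n = 4) at 5 ppm and 443 ± 122 CPM (SD, n = 5) at 0 ppm, with a log2 fold change of 0.03 ± 0.17 (SE). Gsap, a protein that binds gamma-secretase, had 33.4, 16.1, 15.8, and 4.74 CPM at 5 ppm and at most 3.36 CPM at 0 ppm (3.68 ± 0.81 SE, edgeR adjusted p = 0.031). Both other probes of Gsap were also higher, by log2 values of 0.75 and 3.25.

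Zranb2, a splicing regulator, had more reads than the DEGs above in untreated villi. Its levels were 96.8, 71.1, 114, and 148 CPM at 5 ppm and 70.5, 35.9, 58.8, 43.8, and 55.7 CPM at 0 ppm. The groups were separated by less than 1 CPM, and the log2 fold change was 1.02 ± 0.23 (SE; edgeR adjusted p = 0.0405). Nup50, a nucleoporin, rose from 34.3 ± 6.80 to 82.0 ± 38.3 CPM (1.24 ± 0.30 SE, edgeR adjusted p = 0.0529), also without overlap.

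Map2k1 (MEK1), the kinase that activates ERK, had 34.7, 40.2, 21.8, and 20.1 CPM at 5 ppm and 0, 3.69, 0, 12.8, and 12 CPM at 0 ppm. All exposed libraries were above all untreated ones, with a log2 fold change of 2.32 ± 0.54 (SE; edgeR adjusted p = 0.0453). Ssh2, a phosphatase that activates cofilin (3.09), Cnot4, a ubiquitin ligase associated with the CCR4-NOT complex (2.14), Mrpl47, a mitochondrial ribosomal protein (3.19), and Fbxw5, a substrate receptor of ubiquitin ligases (3.68), rose from means of at most 5.72 CPM. Cnot4 was at 5.70 CPM in mouse 289 and at 31.7 to 34.3 CPM in the other 3 exposed mice. An additional probe of Cnot4, with more reads, had 48.9 CPM at 5 ppm and 81.1 CPM at 0 ppm (log2 fold change −0.70). One of Fbxw5, also with more reads, had 74.5 and 88.8 CPM (−0.25). The other probes of Ssh2, all with more reads, had −0.34, −0.14, and 1.19.

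Abcb1b, which encodes a P-glycoprotein that pumps drugs out of cells, had 74.4, 95.2, 47.8, and 35.7 CPM at 5 ppm and 36.6, 11.1, 25.6, 8.51, and 19.4 CPM at 0 ppm. Only the lowest exposed and the highest untreated library overlapped, and the log2 fold change was 1.62 ± 0.40 (SE; edgeR adjusted p = 0.053). Another Abcb1b probe, with few reads, differed in the other direction and did not pass. It was at 0 CPM at 5 ppm and at 3.92 ± 4.16 CPM (SD, n = 5) at 0 ppm. Its paralog Abcb1a, the main P-glycoprotein of the mouse intestine, had 205, 215, 212, and 241 CPM at 5 ppm and 82.1, 109, 92.3, 131, and 114 CPM at 0 ppm. These groups were far apart, but the gene missed the threshold (1.05 ± 0.30 SE, edgeR adjusted p = 0.12). The probes of these close paralogs may share reads.

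Ccl20, a chemokine that attracts lymphocytes and dendritic cells, was a DEG in which mouse 289 stood apart. Its levels were 23.7, 7.60, 737, and 18.2 CPM at 5 ppm and 0, 42.9, 16.5, 12.8, and 37.0 CPM at 0 ppm. The 3 other exposed mice lay within the untreated range, and the log2 fold change of 3.14 became −0.46 without mouse 289. Gjb2, a gap junction protein, likewise changed sign without mouse 289, to −0.42, and was named after its values had been seen.

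In 12 DEGs all libraries of 1 group had at most 3 counts, so fold changes are lower bounds with 3 counts per library as the floor. Stmn2, a tubulin-binding protein of neurons, was at 0 in all 4 exposed libraries and at 10.5, 24.5, 56.1, 11.5, and 2.16 CPM in untreated mice, and was at least 18.0-fold lower. A second Stmn2 probe had 3.71 ± 4.37 CPM (SD, n = 4) at 5 ppm and 5.51 ± 6.84 CPM (SD, n = 5) at 0 ppm. Its log2 fold change of −0.89 did not pass. The immunoglobulin segment Ighv1-53 was at least 14.4-fold lower and Irf4, a transcription factor of plasma cells, at least 7.23-fold lower. Of 166 immunoglobulin variable segments tested, Ighv1-53 was the only one that passed. In the other direction, Rfc4, a subunit of the clamp loader of DNA replication, had 14, 13, 1.27, and 5.83 CPM at 5 ppm and 0 in all 5 untreated libraries, and was at least 8.47-fold higher. Spdl1, a spindle protein (at least 6.80-fold), and Polr1a, the largest subunit of RNA polymerase I (at least 8.53-fold), were also higher. However, another Polr1a probe with more reads was lower, with 5.82 ± 5.89 CPM at 5 ppm and 17.5 ± 13.2 CPM at 0 ppm (log2 fold change −1.53, not passed). Another Irf4 probe with more reads had a log2 fold change of 0.13 that did not pass. Irf4, Spdl1, and Polr1a were chosen after their values had been seen.

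Many genes had more than 1 probe, and these gave a further view of each DEG in the same libraries. Of the 94 DEGs, 60 had a total of 94 other tested probes. Of these, 59 (62.8%) differed in the direction of the DEG, against 50.9% for all pairs of probes of a gene. None of them passed, and 14 had an unadjusted p under 0.05 in that direction. Other probes of Cdc16, Abcb1b, Epb41, Arhgap42, Cnot4, Polr1a, and Nxf1 had such a p in the opposite direction. Over all probes tested, 11.8% had such a p in either direction. The DEGs that fell had 47 of 70 other probes in the same direction, with a median log2 fold change of −0.29, whereas those that rose had 12 of 24, with a median of 0.01. Among other probes with a mean of at least 5 CPM, 38 of 55 and 9 of 15 were in the same direction. Chordc1, Hspa4l, and Tle1 were lower in all of their probes. Tsc22d3, Cdc16, Cnot4, Fbxw5, Abcb1b, Ssh2, Polr1a, and Irf4 were among the DEGs with probes that differed in the other direction.

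**Figure D3:**
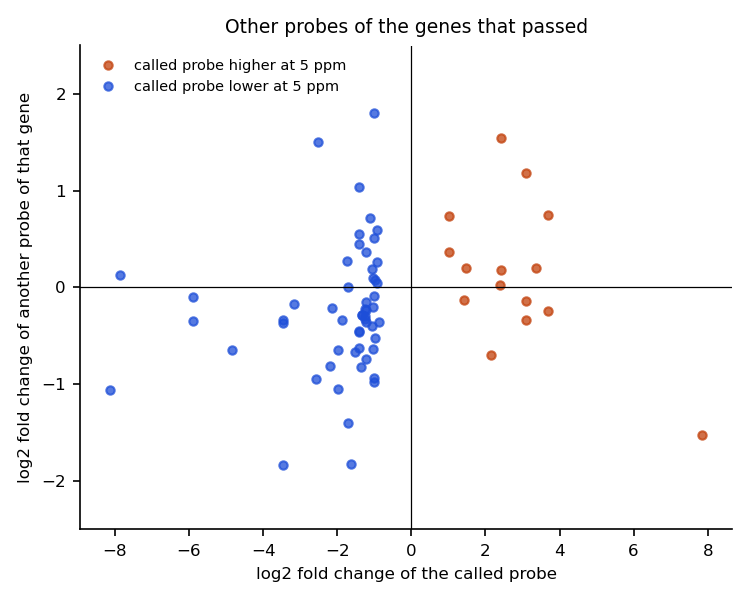
Log2 fold change of the probe that passed (x axis) against that of every other probe of the same gene with a mean of at least 5 CPM (y axis), in blue for DEGs that fell and in orange for those that rose. Of the blue points 38 of 55 lie below 0, and of the orange points 9 of 15 lie above 0.

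Among stress pathways known for metals, 0 genes of the NRF2 list passed (edgeR). At an unadjusted p under 0.05, 7 of 22 were higher and 1 was lower, against 4.90% and 6.91% of all probes. NRF2, encoded by Nfe2l2, is the factor that induces antioxidant enzymes, and it averaged 91.2 CPM at 5 ppm and 53.4 CPM at 0 ppm (log2 fold change 0.75 ± 0.28 SE, edgeR adjusted p = 0.278). The quinone reductase Nqo1 averaged 83.2 and 45.0 CPM (0.89 ± 0.33 SE, edgeR adjusted p = 0.263). Glutathione transferases were also higher on average without passing, with 156 and 72.9 CPM for Gsta4 and 116 and 58.9 CPM for Gstm1. The list's median log2 fold change was 0.28, and 0.15 without mouse 48. In contrast, Srxn1, which repairs oxidized peroxiredoxins, was lower, with 30.9 and 51.0 CPM.

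The response to unfolded proteins in the endoplasmic reticulum had 0 of 23 members that passed, 1 higher and 6 lower at an unadjusted p under 0.05, and a median of −0.27. Hspa5 (BiP), the main chaperone of that compartment, averaged 1417 and 1954 CPM (log2 fold change −0.46 ± 0.19 SE, edgeR adjusted p = 0.321), and Creld2 averaged 139 and 270.1 CPM (−0.95 ± 0.30 SE, edgeR adjusted p = 0.164). Trib3, a pseudokinase induced in the integrated stress response, differed the other way, with 49.0 and 13.4 CPM (1.84 ± 0.52 SE, edgeR adjusted p = 0.11). Among 17 immediate early genes 0 passed, and Junb, a subunit of AP-1, averaged 30.4 and 9.31 CPM (1.58 ± 0.46 SE, edgeR adjusted p = 0.13).

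Of 18 hypoxia genes 0 passed, with 2 higher and 3 lower at an unadjusted p under 0.05 (4.90% and 6.91% of all probes). Hif1a averaged 171 CPM at 5 ppm and 104 CPM at 0 ppm (log2 fold change 0.71 ± 0.29 SE, edgeR adjusted p = 0.309), and Egln3, a hydroxylase that is itself a target of HIF, averaged 39.4 and 16.1 CPM (1.27 ± 0.40 SE, edgeR adjusted p = 0.172). The targets Vegfa and Bnip3 differed the other way, by −0.94 and −2.06. Metallothioneins and zinc transporters (8 genes, median 0.42) and iron handling genes (11 genes, median −0.28) had 0 members that passed. The transferrin receptor Tfrc averaged 29.5 and 77.3 CPM (−1.40 ± 0.53 SE, edgeR adjusted p = 0.282).

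**Figure D4:**
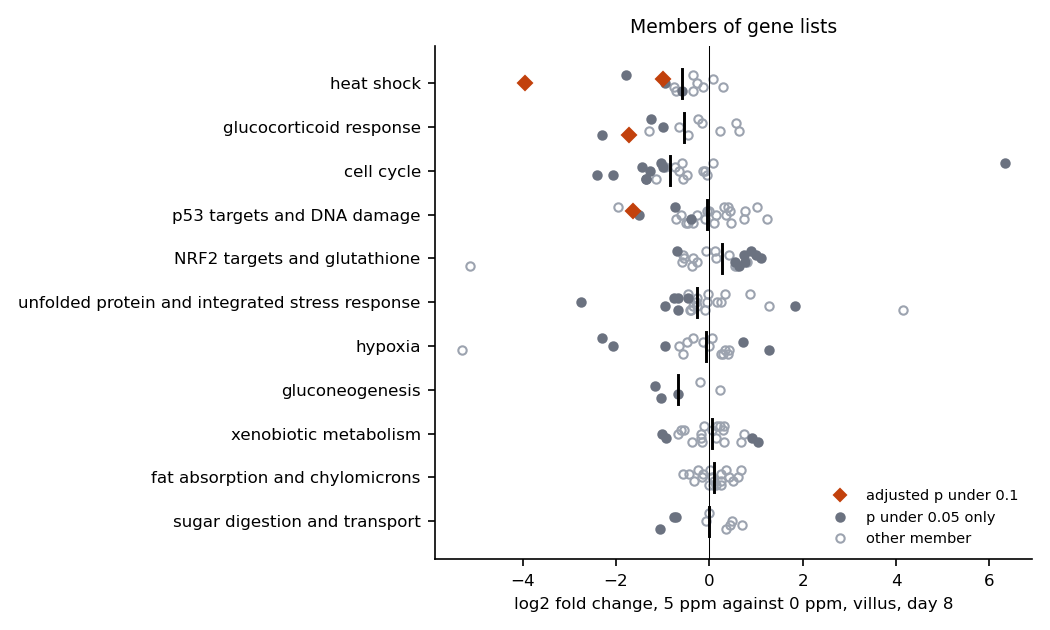
Log2 fold change at 5 ppm against 0 ppm (x axis) of the members of 11 gene lists, with a vertical bar at each median. Orange diamonds passed the adjusted threshold, dark circles had an unadjusted p under 0.05 only, and open circles are the remaining members. Heat shock, glucocorticoid response, and cell cycle members lie mostly left of 0, and fat absorption members lie around it.

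Proliferation and crypt genes had lower values at 5 ppm that moved with mouse 48. Of 20 cell cycle genes 0 passed, 8 were lower and 1 higher at an unadjusted p under 0.05 (6.91% and 4.90% of all probes), and the median log2 fold change was −0.84. Without mouse 48 the median was −0.44, and with crypt markers as a covariate it was −0.18. Mki67, the proliferation marker Ki-67, averaged 10.2 CPM at 5 ppm and 27.8 CPM at 0 ppm (−1.45 ± 0.49 SE, edgeR adjusted p = 0.21), and the replication licensing gene Mcm2 averaged 17.5 and 43.0 CPM (−1.27 ± 0.48 SE, edgeR adjusted p = 0.278).

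Markers of the crypt and of the tissue below the epithelium gave the same picture. Of 10 Paneth markers 7 were lower at an unadjusted p under 0.05 (6.91% of all probes) and 0 passed (median −1.64, and −1.03 without mouse 48). The defensin Defa24 averaged 1080 and 3417 CPM, the matrix protease Mmp7, which activates defensins, 78.7 and 257 CPM, and the ribonuclease Ang4 14.7 and 52.5 CPM. Crypt stem and progenitor markers had a median of −0.85 (−0.45 without mouse 48) and stroma markers one of −0.74 (−0.38), each with 4 members lower at an unadjusted p under 0.05 and 0 that passed. Markers of goblet, enteroendocrine, tuft, B and plasma, T, myeloid, endothelial, erythroid, Brunner gland, and pancreatic acinar cells also had 0 members that passed. Their part in the DEGs was not tested beyond the covariate and the removal of mouse 48 given above.

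Genes of absorption, the main work of the villus, had 0 that passed among 20 of fat absorption (median 0.09), 9 of sugar digestion and transport (median 0), and 17 of amino acid and peptide uptake (median −0.0049). At an unadjusted p under 0.05, 3 of the 9 sugar genes were lower and 0 higher (6.91% and 4.90% of all probes). The median of 0 was the value of 1 sugar gene at the floor in both groups, with 4 members positive and 4 negative. Fat absorption had 0 lower and 0 higher at that p, and amino acid uptake 1 and 1. Fabp2, which carries fatty acids in the enterocyte, averaged 25957 CPM at 5 ppm and 28417 CPM at 0 ppm, and Apoa4, an apolipoprotein of chylomicrons, averaged 18622 and 14581 CPM. The starch-digesting enzyme Mgam averaged 3835 CPM at 5 ppm and 6496 CPM at 0 ppm (log2 fold change −0.76 ± 0.27 SE, edgeR adjusted p = 0.238), and the glucose transporter Slc2a2 averaged 24.4 and 51.8 CPM. Gluconeogenesis had 3 of 5 genes lower at an unadjusted p under 0.05: Pck1, its rate-limiting enzyme, averaged 333 and 745 CPM (−1.16 ± 0.49 SE, edgeR adjusted p = 0.327), and Fbp1 averaged 20.1 and 42.6 CPM.

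Of 21 genes of xenobiotic metabolism 0 passed, with 2 higher and 2 lower at an unadjusted p under 0.05. The receptors PXR (Nr1i2) and CAR (Nr1i3), which induce drug-metabolizing enzymes, averaged 98.5 and 189 CPM and 102 and 208 CPM, with log2 fold changes of −0.93 ± 0.28 and −1.02 ± 0.38 (SE; edgeR adjusted p = 0.138 and 0.267). Abcc2, an export pump for glutathione conjugates, averaged 956 and 507 CPM (edgeR adjusted p = 0.244). Lists of cholesterol synthesis (20 genes), fatty acid oxidation (16), bile acid transport (7), the circadian clock (18), inducible defence (18), MHC class I presentation (11) and class II (7), interferon response (19), butyrophilin-like genes (7), and junctions and membrane mucins (24) also had 0 members that passed, with medians from −0.32 to 0.43.

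In large gene families at most 2 members passed, where 0.357% of all probes did. Of 78 cytosolic ribosomal proteins Rpl37 passed (log2 fold change 1.36), and 46 of the 78 had a negative fold change, as had 53.1% of all probes. Of 75 mitochondrial ribosomal proteins Mrpl47 rose and Mrpl13 fell (−1.45). No subunit of oxidative phosphorylation passed among 79, with a median of 0.03. Of 65 translation factors and 39 proteasome subunits 0 passed with their most abundant probe, and Eif3h (1.48) and Psmd8 passed with another. Reads of ribosomal protein probes may come from pseudogenes. Of 705 olfactory receptors, the odorant sensors of the nose, 0 passed.

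Duox2, Hif1a, Egr3, Saa1, Reg2, Ppy, Muc6, Ctnnd1, Slc10a2, Slc34a2, and Slc5a8 were examined because the study names them for effects at low concentrations. It does so in part for the crypt or for day 91, so the values here are from another compartment or day for several of them. In the villus at 5 ppm on day 8, 0 of these 11 passed. Duox2, the epithelial oxidase that makes hydrogen peroxide, was at 0 in all exposed libraries and at 17.7 and 5.13 CPM in untreated mice 46 and 48, with 0 in the other 3. Muc6, a gland mucin, reached 161 CPM in untreated mouse 46, was at 0.729 CPM in mouse 290, and was at 0 elsewhere. Reg2, a regenerating lectin, averaged 17.1 ± 13.8 CPM (SD, n = 4) and 63.5 ± 58.0 CPM (SD, n = 5), and Ctnnd1, a catenin of adherens junctions, averaged 2407 ± 376 and 3038 ± 834 CPM (log2 fold change −0.34 ± 0.23 SE, edgeR adjusted p = 0.557). Saa1, Slc10a2, Slc5a8, and Ppy had at most 13.4 CPM in any library.

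Crypt libraries of day 8 came from the same 9 mice and from mouse 287 at 5 ppm, with 5 libraries in each group. For 77 of the 94 (81.9%) the crypt log2 fold change had the same sign as in the villus, against 53% of all probes, and 1 passed in the crypt. Crypt and villus of a mouse are not independent. Tsc22d3 was that gene, with 255 ± 56.2 CPM in untreated crypts and 98.2 ± 28.8 CPM at 5 ppm (SD, n = 5 each) and a log2 fold change of −1.38 (edgeR adjusted p = 0.0844). Cdc16 had −0.26 and Prss23 had 0.33 in the crypt.

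The difference between the effects in villus and crypt was then tested. No probe passed (0%, edgeR), 1884 had an unadjusted p under 0.05, and the default form of edgeR also gave 0, whereas DESeq2 gave 63 genes. This fit thus showed none of the DEGs to be particular to the villus. With the mouse as a block, 16 genes passed, of which Ccl20, Gjb2, and Msh6 were DEGs. For Ccl20 and Gjb2 the high library was that of mouse 289. The smallest p were those of Ccl20 (3.26, edgeR adjusted p = 0.000106) and Mybl1 (−5.25), a transcription factor of the MYB family. Of these 16, 7 were alpha-defensins by their symbol (Defa22, Defa32, Defa26, Defa24, Defa29, Defa2, and Defa30), whose difference was negative. AY761184 (−1.77), Gm14851 (−1.57), and Pla2g2a (−1.44) also passed with a negative difference. Others included the replication and repair genes Mcm2 (−2.25) and Msh6 (−3.08). Without mouse 48, whose untreated villus had the most Paneth markers, the blocked fit gave 2 genes, Ccl20 (3.5) and Mybl1 (−4.98), and 0 of the 7 defensins. That fit was added after the data had been seen. Without mouse 289, 30 genes passed in the unblocked fit. Without untreated mouse 46 it was 1 and without mouse 49 it was 3.

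After 90 days (day 91), in mice that share neither libraries nor controls with day 8, the DEGs of day 8 that fell mostly had higher values at 5 ppm. The same sign was seen in 20 of 94 (21.3%), against 36.7% of all probes, in 14 of the 28 that had risen and in 6 of the 66 that had fallen, and 0 of them passed there in that direction. In the opposite direction 26 passed on day 91. Of the 66 that fell on day 8, 23 rose on day 91, where 7.57% of all probes rose, and of the 28 that rose, 3 fell (3.32% of all probes). Hspa8 rose on day 91 by a log2 value of 0.92 (edgeR adjusted p = 0.0134), Chordc1 by 0.90, Mrpl13 by 1.46, and Tle1 by 1.86 (edgeR adjusted p = 0.00886). The median log2 fold change of all probes on day 91 was 0.43, and 62.1% were positive. Tsc22d3 had 143 ± 42.0 CPM (SD, n = 4) at 0 ppm and 157 ± 107 CPM (SD, n = 5) at 5 ppm on day 91. Its untreated level was thus lower than the 327 ± 73.3 CPM (SD, n = 5) of day 8. Untreated Hspa8 was also lower on day 91 (215 ± 119 CPM, SD, n = 4) than on day 8 (415 ± 125 CPM, SD, n = 5). At 5 ppm on day 91 Hspa8 had 411 ± 71.7 CPM (SD, n = 5). Untreated Gspt1 had 8.72 ± 8.55 CPM (SD, n = 4) on day 91 and 29.4 ± 7.20 CPM (SD, n = 5) on day 8. Depth differed between the groups of day 91, with 13091 to 15835 probes detected at 0 ppm and 17172 to 21527 at 5 ppm.

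The effect on day 8 differed from that on day 91 for 3453 probes (13.1% of those tested) of 3173 genes by edgeR, 981 in the positive and 2277 in the negative direction, with 85 genes counted in both because their probes differed. With the log10 total count as a covariate it was 3932 genes. The median difference over all probes was −0.77, so values are to be read against that shift. The split was 1475 and 1779 with DESeq2 size factors, with a median of −0.56. Of the 94 DEGs 80 passed this test, each in the direction of its effect on day 8, but the test contains the contrast that chose them and is not independent. Among them were Tsc22d3 (−1.86, edgeR adjusted p = 0.0043), Hspa8 (−1.91, edgeR adjusted p = 0.000193), and Gspt1 (−3.12, edgeR adjusted p = 0.000193).

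Over the other concentrations on day 8 the DEGs took several courses. Comparisons with 0 ppm share the same 5 untreated libraries, so levels are given side by side. Tsc22d3 had mean levels of 327, 210.2, 135, 98.3, 60.5, 47.7, and 55.8 CPM at 0, 0.1, 1.4, 5, 20, 60, and 180 ppm. The levels decreased with each step up to 60 ppm, and neighboring groups overlapped, except that all libraries at 20 ppm were below those at 5 ppm. Dpyd had 782, 649, 446, 291, 263, 227, and 221 CPM over the same concentrations. Hspa8 was lowest at 5 ppm, with 415, 335, 223, 209, 244, 263, and 365 CPM. The Gspt1 probe that passed was low at 5 ppm only, with 8.13 ± 2.08 CPM (SD, n = 4) and means of 23.3 to 33.2 CPM in all other groups.

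The DEGs that rose differed in the same way. Abcb1b had 20.3, 36.6, 27.5, 63.3, 66.5, 76.6, and 59.8 CPM at 0, 0.1, 1.4, 5, 20, 60, and 180 ppm, and Zranb2 had 52.9, 83.6, 70.2, 107, 107, 93.3, and 83.8 CPM. Map2k1 had its highest mean at 5 ppm, as the plot of levels over concentration shows. Each against 0 ppm, 0 genes passed for 0.1 ppm (edgeR, 1747 probes with an unadjusted p under 0.05), 393 for 1.4 ppm, 94 for 5 ppm, 654 for 20 ppm, 1581 for 60 ppm, and 1389 for 180 ppm.

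**Figure D5:**
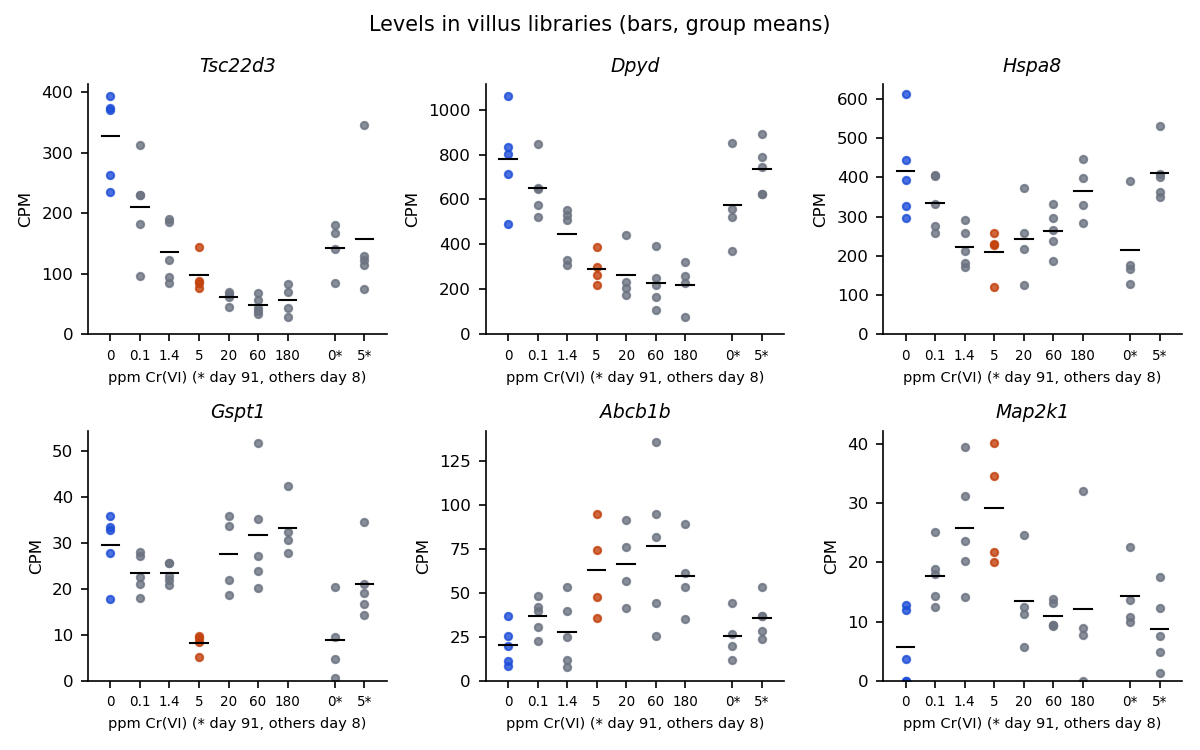
CPM (y axis, linear) in villus libraries at each concentration of Cr(VI) in drinking water (x axis, ppm) on day 8, and at 0 and 5 ppm on day 91 (marked *), for 6 DEGs. Each point is a library, bars are group means, and blue and orange mark the libraries compared here. Tsc22d3 and Dpyd decline over the range, Gspt1 is low at 5 ppm only on day 8, and Abcb1b is higher from 5 ppm upward.

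Compared directly, 5 and 20 ppm differed in 73 probes (0.277% of those tested) of 72 genes by edgeR, 28 higher and 44 lower at 5 ppm. Gzmb, granzyme B of cytotoxic lymphocytes, was higher at 5 ppm (61.1 ± 24.4 against 6.96 ± 2.28 CPM, SD, n = 4 each, log2 difference 3.14, edgeR adjusted p = 0.00116). Ada, an enzyme of purine breakdown found at villus tips, was also higher (128 ± 78.8 against 9.40 ± 12.3 CPM, log2 difference 3.88). Pck1 was at 333 ± 109 CPM at 5 ppm and 45.4 ± 21.7 CPM at 20 ppm (log2 difference 2.90, edgeR adjusted p = 0.006). Prkaa1, the catalytic subunit of the energy sensor AMPK, was lower at 5 ppm (−1.63). These genes were named after their values had been seen, and the number passing was 26 without mouse 286, 17 without mouse 288, and 184 without mouse 289.

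Between 5 and 1.4 ppm no probe passed (0%, edgeR), with 2230 at an unadjusted p under 0.05 and a smallest adjusted p of 0.103. DESeq2 gave 437 genes and the default form of edgeR gave 8. Without mouse 289 the number was 25, and it was 3 without mouse 286, 4 without mouse 290, and 2 without untreated mouse 46 or 47.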

How the data were processed

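RNA of microdissected villi was measured by TempO-Seq, and the authors deposited the count of reads per probe for each library without normalization. Per the labels, reads were demultiplexed with bcl2fastq 2.17.1.14 and aligned with Bowtie, and the genome build was not given in the sources used here. The gene symbol was the part of the probe name before its number. Every row had a gene name.

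Of 30146 probes (21450 genes), 26365 (19020 genes) passed filterByExpr. Counts of all libraries in 28 groups were fitted with edgeR 4.0.16 (R 4.3.3) by quasi-likelihood with TMM scaling, without covariates, with glmQLFit in its newer form (legacy off) and without estimateDisp. P values were two-sided and adjusted by Benjamini-Hochberg over all probes tested, and 0.1 was the threshold. Differences between effects were contrasts of the same fit. Fold changes used a prior count of 2, and fold bounds a floor of 3 counts per library. Replicates were separate mice, and Spearman correlations between them were 0.761 to 0.825 at 5 ppm and 0.769 to 0.835 at 0 ppm. The fit was tested on simulated data.

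Named genes were the 12 DEGs with the smallest p in each direction, members of the lists that passed, the 3 members of each list with the highest mean CPM, and 11 genes the study names for low concentrations. Others are marked in the text or are list members given with their values. The members and lists were chosen with earlier results of these data known. For a list, each gene was read by its probe with the most counts in all libraries. Markers without a probe among those used (Tff3, Agr2, Defa17, Tff2, Clps, and Itgam) were not analysed here, nor were Pc and Muc17 of other lists.

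Mouse numbers in the labels pair crypt and villus. Deviations from group means correlated with a median of 0.107 within a mouse (32 pairs) and −0.0242 between mice (133 pairs). Alternatives were the default form of edgeR after estimateDisp, DESeq2 1.42.0, the size factors of DESeq2 used with edgeR, a looser filter (any probe with 1 count) and a stricter one (mean count 10 or more), the log10 total count or the level of crypt markers as a covariate, probes summed per gene, fits of fewer groups, the mouse as a block (also without mouse 48, added after the data had been seen), and leaving out each library. Gene positions are GENCODE M21 on GRCm38 and promoters are RefSeq on GRCm38.p6, matched by symbol for 76 of the 94 DEGs. Summaries used Python 3.11.15, numpy 2.4.6, pandas 2.3.3, scipy 1.17.1, and matplotlib 3.10.9.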

Additional observations from a re-analysis of the deposited data

Results flagged for a closer look

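Of 112 groups of libraries tested with Dixon's ratio over the named genes and marker sums, 22 held a library that stood apart from its group. The chance rate of about 1 in 20 holds for normally distributed values only. Where all other libraries were at 0 the ratio was 1 at any level, so the count cannot show an excess. Muc6 and the Brunner gland sum were counted separately. In the exposed group, mouse 289 was high for Ccl20 (737 CPM), low for Cnot4 (5.70 CPM) and Ctnnd1 (1845 CPM), and the only library above 0 for Prss23 (1.90 CPM), Hspa1b (3.80 CPM), and Slc10a2 (4.43 CPM). Mouse 286 was the only one above 0 for Saa1 (6.77 CPM), and mouse 290 for Muc6 and thus for the Brunner gland markers (0.729 CPM). Mouse 288 was low in pancreatic acinar markers (178 CPM). Among untreated libraries, mouse 50 was the only one above 0 for Mrpl47 (8.64 CPM) and Fbxw5 (4.56 CPM) and the highest for Slc5a8 (4.32 CPM). Mouse 48 was high for Ighv1-53 (40.2 CPM), Ppy (0.809 CPM), and the crypt stem and progenitor markers (966 CPM). Mouse 46 was high for Duox2 (17.7 CPM) and for Muc6 and the Brunner gland markers (161 CPM), mouse 47 for Saa1 (13.4 CPM) and Slc10a2 (7.04 CPM), and mouse 49 for erythroid markers (11.5 CPM).

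The effect of 5 ppm on day 8 differed from that on day 91 for 23 of the 40 genes in these tests (edgeR, adjusted p under 0.1), where 13.1% of all probes differed and the median difference over all probes was −0.77. Most of these genes were chosen by the contrast of day 8 that this test contains, so the count is not independent. The log2 difference of the effects (day 8 minus day 91) was positive for Psmd8 (3.19), Ssh2 (4.61), Zranb2 (1.13), Cnot4 (2.89), Map2k1 (3.05), Nup50 (1.89), and Rpl37 (2.12). It was negative for Tsc22d3 (−1.86), Cdc16 (−2.75), Ccng1 (−2.11), Dpyd (−1.77), Prss23 (−4.49), Gspt1 (−3.12), Lta4h (−1.58), Tle1 (−3.84), Sbf2 (−2.69), Tbcb (−1.03), Sort1 (−2.74), Hspa8 (−1.91), and Mrpl13 (−2.91). For Rfc4 (7.96), Stmn2 (−10.88), and Ighv1-53 (−15.27) a group was at or under 3 counts in every library, so the fitted value depends on the prior count.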

How the results depend on the processing

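The main comparison gave 94 genes, and 755 with DESeq2, 272 with the stricter filter, 55 with probes summed, 22 with crypt markers as a covariate, 1 with the villus libraries of day 8 alone, 1 with the 2 groups alone, and 0 to 450 with a library left out. Of the 94, 90 were shared with DESeq2, 86 with the stricter filter, 47 with summed probes, and 22 with the covariate. The default form of edgeR gave 83 genes (14 higher and 69 lower, 65 shared) and the log10 total count 130 (42.3% higher). The direction was kept in 90 of the 94 genes in each fit that tested them (86 were tested in all 10 alternatives, the others in 7 to 9). It was reversed with summed probes for Cnot4 (−0.16) and Polr1a (−0.31) and without mouse 289 for Ccl20 (−0.46 to 3.51 over the removals) and Gjb2 (−0.42 to 2.75), and the cause was not tested. The difference between villus and crypt gave 0 genes, and 63 with DESeq2, 1 with the stricter filter, 16 with the mouse as a replicate block, 2 with that block without mouse 48, and 0 to 30 with a library left out. The difference between days gave 3173 genes, and 5702 with the default form, 1669 with the covariate, 1995 with villus libraries alone, and 2281 to 3790 with a library left out. Between 5 and 20 ppm there were 72 genes, and 754 with DESeq2, 255 with the stricter filter, 127 with the covariate, 3 with villus libraries of day 8 alone, and 17 to 184 with a library left out. Between 5 and 1.4 ppm there were 0, and 437 with DESeq2, 8 with the default form, 6 with the stricter filter, 2 with DESeq2 size factors, 2 with the log10 total count, 2 with the covariate, 1 with summed probes, and 0 to 25 with a library left out. Of the 94 genes 46 had means under 50 CPM in both groups, and no limit of detection was computed.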
